A study of Mus musculus with 25 samples.

Results

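The genes described here were almost unread in wild-type mouse embryonic stem cells (mESCs) and were read at a low level in mESCs whose Dot1L gene had been knocked out. They were chosen from the gene counts of those same cells, so the gap between the genotypes is a description of how they were found and carries no test. A gene was kept when it was under 0.5 CPM (its count times 1000000 over its library's total) in each of 3 wild-type libraries and at least 1 CPM in both knockout libraries. Of 35662 named genes, 31 met these limits, and 27 were left after names that start with Hox, Pcdh, Zscan4 or Gm were set aside. They were then followed in places the choice did not use: 8-cell embryos given a Dot1L inhibitor, histone H3 lysine 79 methylation, position in the genome, and promoter sequence.

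The mESCs were of the v6.5 line, either wild type (3 RNA libraries) or Dot1L KO (2 RNA libraries), and neither genotype was treated. The embryos were genetically wild type, from B6D2F1 and Cast/EiJ parents, and were collected as pools of 30 to 35 embryos at 56 hours post fertilization after DMSO (the solvent control, 2 pools) or the Dot1L inhibitor SGC0946 (2 pools). Chromatin immunoprecipitation (ChIP) peak lists for H3K79me2 and H3K79me3 came from 2 wild-type and 2 knockout mESC samples for each mark. The labels do not name the deleted exons or the number of knockout clones, nor do they say that replicates came from separate cultures, so the spread between libraries may be technical only.

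DOT1L is the enzyme that adds methyl groups to lysine 79 of histone H3, a position in the core of the nucleosome. H3K79 methylation lies mainly over the first part of the bodies of genes that are being transcribed, and silent genes usually lack it. Embryonic stem cells keep most genes of specialised tissues off, and transcripts of such genes can still be counted at a few molecules among very many.

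The 27 genes are best known from very different tissues: 4 act in signalling, 3 are channels or channel subunits, 4 belong to photoreceptors or to the hair cells of the ear, 3 work in meiosis or germ cells, 5 are metabolic enzymes or their regulators, 4 act in transcription or in ubiquitin pathways, 3 are neuronal, cytoskeletal or of other roles, and 1 is a long noncoding RNA. These roles were assigned after the genes were known. The upstream sequences of 4 of them are shown as examples of promoters that differ within the set. Tal2 has a TATA box at the usual distance, and Prok2 is rich in CpG and carries 3 of the motifs that were searched. Prokr1 codes for a receptor of the Prok2 protein and has none of these motifs, and Usp17ld holds no CpG in its window. Each printed sequence is that of RefSeq (GRCm38.p6) for the 250 bases before the transcription start, on the strand of the gene. Capitals mark the letters of a TATA box (TATAAA), an AP-1 site (TGACTCA), an E-box (CACGTG) or a CCAAT box, wherever they lie. Matches on the opposite strand are read as their reverse complement.
Tal2, chr4:53779451-53779700, plus strand: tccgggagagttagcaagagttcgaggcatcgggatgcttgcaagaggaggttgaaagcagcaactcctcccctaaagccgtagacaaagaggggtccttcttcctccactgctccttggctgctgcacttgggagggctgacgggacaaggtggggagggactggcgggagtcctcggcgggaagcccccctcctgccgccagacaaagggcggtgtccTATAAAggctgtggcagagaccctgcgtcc
Prok2, chr6:99726393-99726642, minus strand: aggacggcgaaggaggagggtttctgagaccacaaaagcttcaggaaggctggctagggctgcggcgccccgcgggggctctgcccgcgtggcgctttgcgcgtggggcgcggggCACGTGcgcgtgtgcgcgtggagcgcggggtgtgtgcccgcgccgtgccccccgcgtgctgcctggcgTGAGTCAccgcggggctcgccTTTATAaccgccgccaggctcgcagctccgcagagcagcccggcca
Prokr1, chr6:87590744-87590993, minus strand: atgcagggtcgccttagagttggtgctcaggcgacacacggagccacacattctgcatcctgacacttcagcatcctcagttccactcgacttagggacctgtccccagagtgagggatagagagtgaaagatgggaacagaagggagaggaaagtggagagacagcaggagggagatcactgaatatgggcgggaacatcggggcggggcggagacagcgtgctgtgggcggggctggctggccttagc
Usp17ld, chr7:103252506-103252755, minus strand: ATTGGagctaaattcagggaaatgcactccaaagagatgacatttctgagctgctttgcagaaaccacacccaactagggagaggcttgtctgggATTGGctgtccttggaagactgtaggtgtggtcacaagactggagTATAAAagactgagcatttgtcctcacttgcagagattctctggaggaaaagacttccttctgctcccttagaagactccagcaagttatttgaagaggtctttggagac

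The 9 RNA libraries held between 24950199 and 33755064 counts each. The knockout's own target, Dot1l, had 2878, 3151 and 2849 counts in the wild-type libraries and 2319 and 2201 in the knockouts (97.1 ± 4.11 CPM, SD, n = 3, against 80.0 ± 8.91, n = 2). On the log2 scale the knockouts were at -0.39 relative to wild type (SE 0.06; edgeR's quasi-likelihood test, adjusted p 0.000162), and counts over the whole gene do not show the deleted part. All of 15 pluripotency genes were read in both genotypes, with sums of 5518 to 5637 CPM in wild-type and 5523 to 5621 CPM in knockout libraries, but 9 of them were called lower and 3 higher, so the similar sums hide changes in both directions. None of the 27 genes is on any of 9 marker lists. Over all tested genes 22.3% were called higher and 21.4% lower. Of the tested genes of each list, 20 of 29 germline genes were called higher and 5 lower, 19 of 36 primitive and visceral endoderm genes were higher and 5 lower, and 9 of 20 muscle genes were higher and 0 lower. The trophectoderm list had 10 higher and 5 lower of 25, the neural list 7 and 7 of 27, the primed epiblast and mesoderm list 5 and 4 of 27, and the immune and blood list 3 and 2 of 23. A list of 20 fibroblast genes, which could mark feeder cells, had 9 of 19 tested genes higher and 0 lower, with 1 under 0.5 CPM in all 5 libraries and the list's sum running from 279 to 340 CPM in wild-type and from 367 to 447 CPM in knockout libraries. The part of the fibroblast, muscle and endoderm genes in the levels of the 27 genes was not tested, and in such bulk samples a few cells with much of a transcript and many cells with little of it cannot be told apart.

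Wild-type libraries were not empty of these transcripts. Their counts ran from 0 to 16.5, only Filip1 and Pnliprp2 had a library at 0 (the first wild-type library for each), and the knockout counts ran from 28 to 86. Added over the 27 genes, the wild-type libraries held 240.4, 277.1 and 243.7 counts (8.48, 8.21 and 8.25 CPM) and the knockouts 1158.1 and 1137 (43.1 and 38.1 CPM). Mean levels lay between 0.0945 and 0.449 CPM in wild type and between 1.07 and 2.94 CPM in the knockout, with medians of 0.315 and 1.37. "On" therefore means a low level: 80.9% of the genes tested in mESCs had a knockout mean above the median of the 27, and 70.4% lay above the highest of them.

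The fitted log2 fold changes ran from 1.37 (Guca1a) to 3.39 (Pnliprp2), with a median of 2.19, where the median over all tested genes was 0.00. All 27 passed the edgeR threshold of an adjusted p under 0.05 in the direction that the choice fixed, beside 22.3% of 19561 tested genes called higher, 21.4% called lower and 43.7% called in all. Nothing is read from that count. The first knockout library was the higher for 20 genes and the second for 7, and the ratio of the first to the second ran from 0.820 (Kcnj11) to 1.61 (Best2), with a median of 1.08. Most genes silent in wild type stayed so: of 6332 with names that were kept, 5873 were under 0.5 CPM in both knockout libraries, 257 reached 0.5 CPM in a single knockout library, and 175 reached it in both without being chosen, which leaves 0.426% as the group described here.

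**Figure D1:**
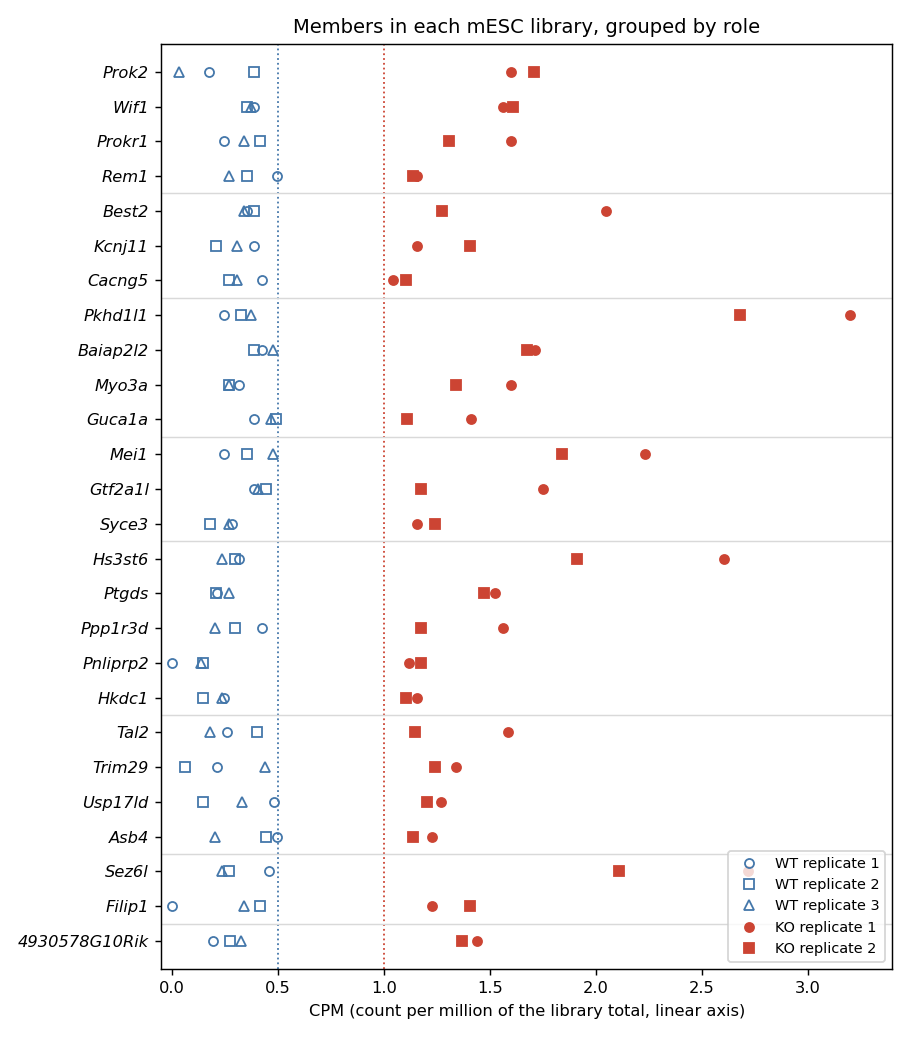
CPM of all but 1 of the 27 genes in each mESC library (linear axis; 1 row per gene, with lines between the role groups; open blue symbols are the 3 wild-type and filled red symbols the 2 knockout libraries, called WT and KO replicates). The dotted lines are the limits of 0.5 and 1 CPM that chose the genes, so the gap between the genotypes is built in; Pkhd1l1 and Sez6l are the genes with both knockout libraries above 2 CPM.

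The limits run through a continuum of levels. Just inside the wild-type limit were Rem1 and Asb4 with a highest wild-type library of 0.494 CPM each and Guca1a with 0.489, and just outside it were Vipr1 and Mcoln3 with 0.504 each and Fer1l4 with 0.508. Just inside the knockout limit were Cacng5, whose lower knockout library held 1.04 CPM, and Hkdc1 with 1.11, and just outside were Slc35g2 with 0.972 and Popdc3 with 0.970. Levels below are compared between libraries and not between genes, because CPM is not corrected for transcript length.

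Among the signalling genes, a ligand and a receptor for it were both chosen. Prok2 codes for prokineticin 2, a secreted peptide known from neurogenesis of the olfactory bulb and from circadian output, and had 5, 13 and 1 counts in the wild-type libraries against 43 and 51 in the knockouts. Its wild-type libraries differed among themselves more than those of most of the other genes (0.198 ± 0.177 CPM, SD, n = 3, against 1.65 ± 0.0762, n = 2; log2 fold change 2.87, SE 0.45). Prokr1 codes for a G-protein-coupled receptor of the prokineticins and had 7, 14 and 10 counts against 43 and 39 (0.333 ± 0.0841 against 1.45 ± 0.208 CPM; 1.98, SE 0.31). The second receptor gene, Prokr2, was already read in wild type at 13.9 ± 0.343 CPM and had 15.4 ± 1.26 CPM in the knockout (log2 fold change 0.04, SE 0.08, adjusted p 0.720 in edgeR). The other ligand gene, Prok1, was too low to be tested, with 0.0589 and 0.166 CPM.

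Wif1, which codes for a secreted protein that binds Wnt ligands, had 11, 12 and 11 counts in wild type and 42 and 48 in the knockout (0.372 ± 0.0162 against 1.59 ± 0.0314 CPM; log2 fold change 1.98, SE 0.28). Its libraries within each genotype were among the closest of the set. Of other genes of secreted or cell-surface Wnt modulators and Wnt targets, Sfrp2 (0.68), Dkk3 (0.63), Kremen1 (0.32), Kremen2 (0.57), Axin2 (0.65) and Lef1 (0.44) passed the edgeR test as higher, with these log2 fold changes. Of the 12 that were tested, Sfrp5, Frzb, Dkk1, Dkk2 and Dkk4 did not pass. Sfrp1, an inhibitor read at 125 ± 1.74 CPM in wild type, was lower at 82.7 ± 3.52 CPM (log2 fold change -0.70, SE 0.05, adjusted p 1.74e-07), so the inhibitors of the pathway did not all move one way. Rem1, a small GTPase that holds down voltage-gated calcium channels, had 14, 12 and 8 counts against 31 and 34 (1.51, SE 0.32), and its relative Rem2 went from 1.86 ± 0.258 to 3.80 ± 0.782 CPM (0.93, SE 0.19, adjusted p 0.00136).

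The channel genes included the pore of a channel whose other subunit is its neighbour. Kcnj11 codes for the potassium channel Kir6.2, the pore of the ATP-sensitive channel that couples glucose to insulin release in beta cells, and had 11, 7 and 9 counts in wild type against 31 and 42 in the knockout (0.30 ± 0.0904 against 1.28 ± 0.179 CPM; log2 fold change 2.0, SE 0.34). Abcc8, which codes for the sulfonylurea receptor of the same channel, lies 3571 bp away on chromosome 7. It held 2.68, 2.28 and 3.15 CPM in wild type and 11.1 and 10.2 CPM in the knockout (log2 fold change 1.87, SE 0.13, adjusted p 1.474e-07 in edgeR). The Abcc8 levels did not overlap between the genotypes. The other pair of this channel family did not follow: Kcnj8 was too low to be tested, and Abcc9 had 1.21 ± 0.167 against 1.11 ± 0.645 CPM (adjusted p 0.671).

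Cacng5, a gene of the family that codes for calcium channel gamma subunits and AMPA receptor partners, had 12, 9 and 9 counts against 28 and 33 (1.59, SE 0.33), the lowest knockout mean of the set. Of its relatives, Cacng6 (0.44) and Cacng7 (0.49) were called higher and Cacng4 lower (-0.66, SE 0.12, adjusted p 0.000819), while Cacng2 and Cacng8 did not pass the test. Best2, a calcium-activated chloride channel gene, had 10, 13 and 10 counts against 55 and 38, the widest gap between the knockout libraries (2.05 and 1.27 CPM; log2 fold change 2.08, SE 0.31).

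Genes of sensory cells made up the next group, and it holds the gene with the highest knockout count. Pkhd1l1, which codes for fibrocystin-L, a large membrane protein found on the stereocilia of hair cells, had 7, 11 and 11 counts in wild type and 86 and 80 in the knockout (0.315 ± 0.0635 against 2.94 ± 0.369 CPM; log2 fold change 3.09, SE 0.25). Its paralogue Pkhd1 had 1.02 ± 0.144 against 1.29 ± 0.121 CPM and did not pass the test (adjusted p 0.474). Myo3a, a motor protein of stereocilia tips, had 9, 9 and 8 counts against 43 and 40 (2.25, SE 0.30). Baiap2l2, a membrane-bending protein also needed in stereocilia, had 12, 13 and 14 against 46 and 50 (1.87, SE 0.26), and its paralogue Baiap2l1 went from 5.34 ± 0.230 to 13.2 ± 1.56 CPM (1.19, SE 0.10, adjusted p 7.80e-07). Guca1a codes for a calcium sensor that controls guanylate cyclase in photoreceptors and had 11, 16.5 and 13.9 estimated counts against 37.9 and 33.1, the smallest fold change of the set (1.37, SE 0.29). Its partner genes Guca1b and Gucy2e did not pass the test (log2 fold changes 0.30 and 0.26).

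Of the meiosis and germ cell genes, Mei1, needed for the DNA breaks that start meiotic recombination, had 7, 12 and 14 counts in wild type against 60 and 55 in the knockout (0.359 ± 0.114 against 2.04 ± 0.277 CPM; log2 fold change 2.38, SE 0.29). Syce3, a central element protein of the synaptonemal complex that joins paired chromosomes, had 8, 6 and 8 counts against 31 and 37 (2.19, SE 0.34). Gtf2a1l, the germ cell form of a subunit of the transcription factor TFIIA, had 11, 15 and 12 against 47 and 35 (1.69, SE 0.30). Other parts of the synaptonemal complex were already read in wild type, where Sycp2 (1.99), Sycp3 (0.81), Sycp1 (0.37) and Syce2 (0.17) were called higher with these log2 fold changes, and Syce1 and Tex12 were not called. The genes that work with Mei1 in break formation went apart, with Iho1 higher (0.55, SE 0.09) and Rec114 lower (-0.54, SE 0.10), and the somatic TFIIA genes Gtf2a1 (0.01) and Gtf2a2 (-0.05) did not pass the test.

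The metabolic genes included the member with the lowest wild-type level. Pnliprp2, a lipase related to pancreatic lipase, had 0, 5 and 4 counts against 30 and 35 (0.0945 ± 0.0821 against 1.14 ± 0.0394 CPM; log2 fold change 3.39, SE 0.51). Of its relatives, Pnlip and Pnliprp1 were too low to be tested, and Clps, the cofactor of pancreatic lipase, was lower in the knockout (0.739 ± 0.127 against 0.153 ± 0.163 CPM; -2.29, SE 0.53, adjusted p 0.00346). Hs3st6, a sulfotransferase that modifies heparan sulfate, had 9, 10 and 7 counts against 70 and 57 (2.86, SE 0.29). Ptgds, which makes prostaglandin D2, had 6, 7 and 8 against 41 and 44 (2.58, SE 0.31), while Hpgds, the other prostaglandin D synthase, was lower (16.9 ± 0.371 against 13.7 ± 1.06 CPM; -0.41, SE 0.08, adjusted p 0.00106). The other relatives listed for Ptgds, which are Ptgs1 (0.38), Ptgs2 (0.55) and Ptges (0.46), were called higher with these log2 fold changes.

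Gene families of sugar metabolism had several members higher, though the set itself holds a single gene of each. Hkdc1, a hexokinase, had 7, 5 and 7 counts against 31 and 33 (2.31, SE 0.35), and Hk1 (0.67) and Hk2 (0.48) were called higher with these log2 fold changes. Ppp1r3d, a subunit that brings protein phosphatase 1 to glycogen, had 12, 10 and 6 counts against 42 and 35 (2.03, SE 0.34). Its relatives Ppp1r3c, with 0.758 ± 0.247 against 5.51 ± 1.58 CPM (2.73, SE 0.25, adjusted p 1.671e-06), and Ppp1r3b, with 6.72 ± 0.104 against 23.3 ± 5.34 CPM (1.68, SE 0.11), were also called higher. Ppp1r3e, Ppp1r3f and Ppp1r3g did not pass the test.

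In the transcription and ubiquitin group, Tal2, a basic helix-loop-helix factor of the developing midbrain, had 7.4, 13.5 and 5.3 estimated counts against 42.6 and 34.2 (log2 fold change 2.20, SE 0.36). The paralogue Tal1, a regulator of blood formation, was lower in the knockout (1.19 ± 0.0762 against 0.625 ± 0.221 CPM; -1.04, SE 0.29, adjusted p 0.0106). Trim29, an epithelial protein of the TRIM family, had 6, 2 and 13 counts against 36 and 37, a spread in wild type wider than that of Prok2 (2.36, SE 0.45). Asb4, which recruits targets to a ubiquitin ligase, had 14, 15 and 6 against 33 and 34 (1.51, SE 0.35). Usp17ld, a deubiquitinase of a family of close copies, had 13.6, 4.9 and 9.8 estimated counts against 34 and 35.9 (1.84, SE 0.38). Among its copies, Usp17le went from 1.80 ± 0.219 to 5.17 ± 0.636 CPM (1.42, SE 0.17), and the counting could split reads between such copies, so the value of each is uncertain.

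The remaining genes described are neuronal, cytoskeletal or noncoding. Sez6l, a neuronal membrane protein, had 13, 9 and 7 counts against 73 and 63 (2.80, SE 0.29), and with Pkhd1l1 it was the only gene with both knockout libraries above 2 CPM. Filip1, which interacts with filamin, had 0, 14 and 10 counts against 33 and 42 (2.22, SE 0.52), the least precise value of the set. The noncoding 4930578G10Rik had 5.4, 9.2 and 9.7 estimated counts against 38.6 and 40.8 (2.31, SE 0.33).

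Over all the relatives that were listed by gene family, complex or pathway, 92 of 96 were in the mESC table, 79 could be tested, and 33 were called higher and 9 lower (41.8% and 11.4%, beside 22.3% and 21.4% of all tested genes). Of the 92, 15 were under 0.5 CPM in all wild-type libraries, and 13 of those stayed under it in both knockouts. The relatives named here were picked from that list with their values in view.

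**Figure D2:**
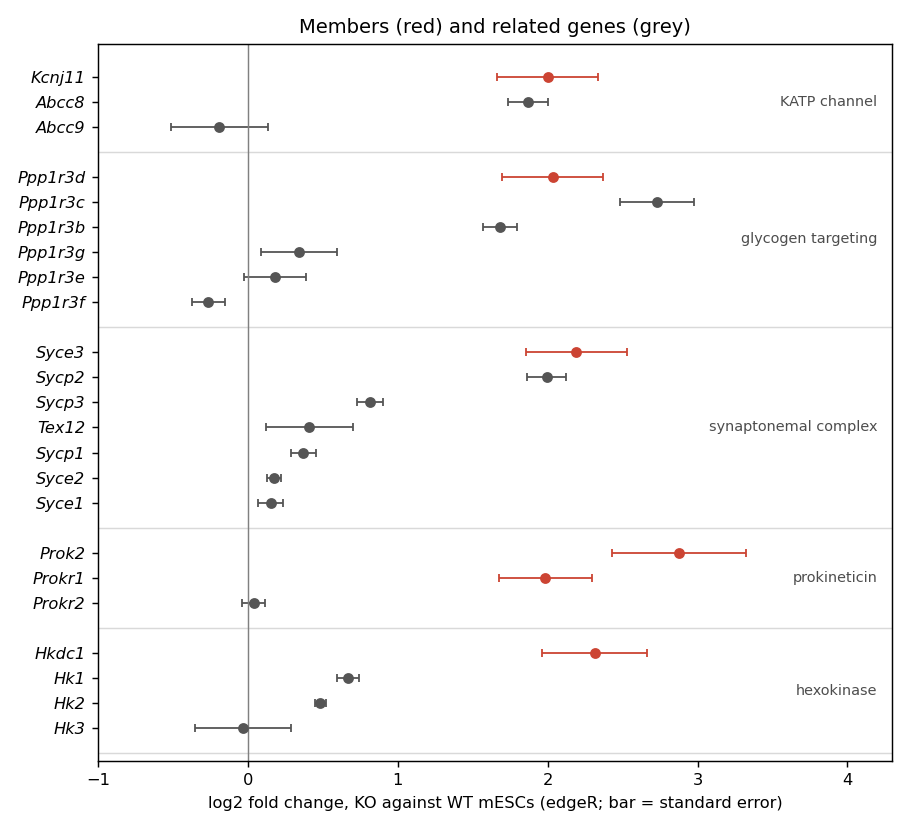
Fitted log2 fold change, knockout against wild-type mESCs, for chosen genes (red) and their relatives (grey) in 5 families or complexes. Points are edgeR estimates, and bars are the SE derived from edgeR's test statistic. The red values are large by the choice of the genes. The families drawn hold none of the 9 listed relatives that were called lower, such as Sfrp1 (-0.70), Tal1 (-1.04) and Clps (-2.29). The grey points therefore do not stand for all relatives. Among the grey ones Ppp1r3c (2.73) and Sycp2 (1.99) reach the range of the red points. Abcc8 (1.87) and Ppp1r3b (1.68) lie below every red point, while Abcc9, Prokr2 and Hk3 lie at or near 0.

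The embryo libraries were not used to choose the genes. The question there is whether the inhibitor moved them in 8-cell embryos, and it had no detectable effect at this depth and number of pools. Of the 27, 26 were listed in the embryo table (not 4930578G10Rik), 16 had counts high enough to be tested, and 0 passed an adjusted p of 0.05 in edgeR's quasi-likelihood test, as was so for 0 of 14351 tested genes (0%). Before adjustment, edgeR gave 1 of the 16 a p under 0.05 (8.15% of all tested genes). DESeq2 called 0 of the 3 members that it gave an adjusted p, where it called 1.61% of 7753 genes over the whole table. Before adjustment, DESeq2 put 3 members under 0.05. The share of all genes under 0.05 before adjustment in DESeq2 was not counted, so nothing is read from those 3. With 2 pools against 2, the smallest exact two-sided permutation p for a single gene is 0.333. Fitted changes were lower for 11 and higher for 5, with a median of -0.23 on the log2 scale beside 0.01 for all tested genes, and the median became 0.35 without the first DMSO pool. The groups did not overlap in 3 genes that were lower with SGC0946 and 2 that were higher, out of 16, where 13.6% and 26.0% of all tested genes did so.

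Several of these genes that mESCs hardly read were read in embryos without any inhibitor. With DMSO, 8 of the 26 listed genes had at least 1 CPM in both pools (30.8%): Guca1a, Hkdc1, Pnliprp2, Mei1, Best2, Usp17ld, Asb4 and Wif1. For comparison, 1091 genes had the same range of wild-type mESC means and stayed under 0.5 CPM in both knockout libraries, and of the 804 of these that were listed in embryos 70 reached that level (8.71%), while 46.6% of all embryo genes did. These shares were not tested against each other. The comparison genes share only that range, and were not matched on the levels within it or on gene type. Of the 1058 placed, 875 are protein-coding, against 26 of the 27.

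**Figure D3:**
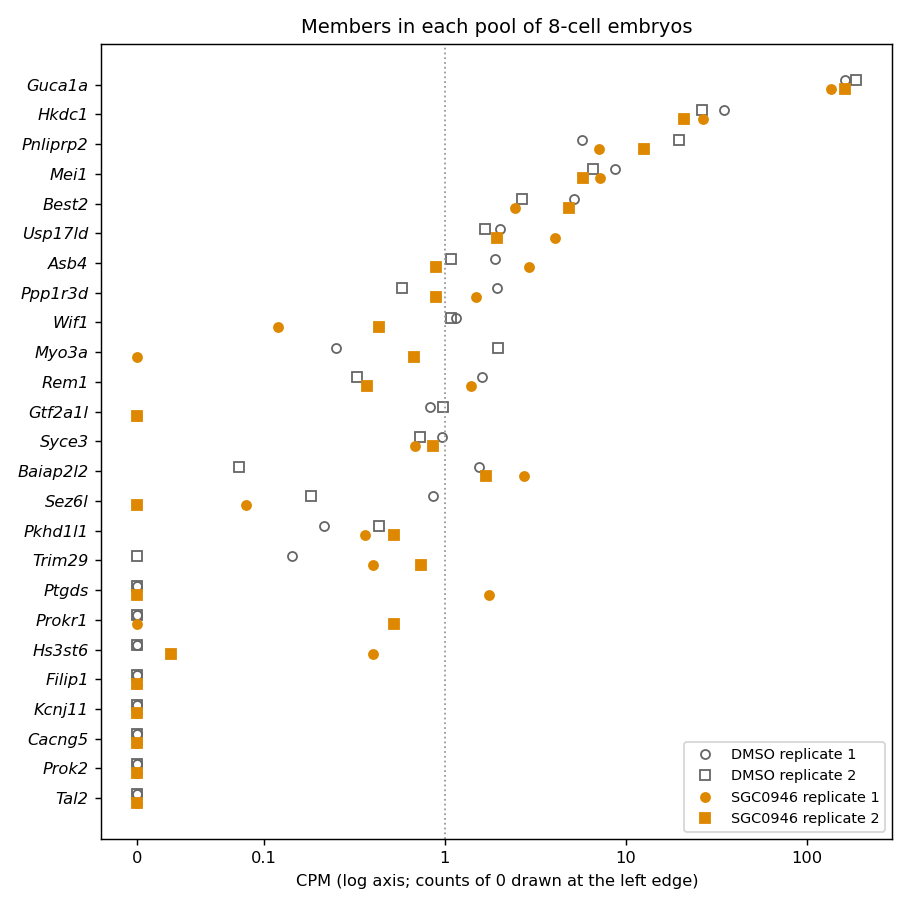
CPM of all but 1 of the 26 listed genes in the 4 embryo pools (log axis, with counts of 0 drawn at the left edge; 1 row per gene; open grey symbols are DMSO pools and filled orange symbols SGC0946 pools; the dotted line is at 1 CPM). Guca1a stands far to the right at 135 to 188 CPM, the 2 treatments are mixed in most rows, and 5 genes are at 0 in all 4 pools.

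Guca1a had the most embryo counts, with 4549 and 5195 counts with DMSO and 3380 and 5256 with SGC0946 (163 and 188 CPM against 135 and 162). The 2 groups of CPM values did not overlap, though only just, and the difference did not pass the test (log2 fold change -0.33, SE 0.16, adjusted p 0.623). The partner gene Gucy2e, which codes for a guanylate cyclase that the Guca1a protein controls in photoreceptors, was also read in embryos, with 3241 and 2884 counts against 2676 and 3497. Hkdc1 had 971 and 727 counts against 671 and 679 (34.8 and 26.4 against 26.9 and 20.9 CPM; -0.45, SE 0.27, adjusted p 0.733), and Pnliprp2 had 160 and 540 against 177 and 411. Pnliprp2 thus differed more between the DMSO pools than between the treatments.

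Mei1 had 242 and 182 counts with DMSO and 179 and 189 with SGC0946, and Best2 had 145 and 74 against 61 and 157. Usp17ld had 56 and 46 against 101 and 63, and Asb4 had 53 and 30 against 73 and 29. In CPM these groups overlapped for Mei1, Best2, Asb4 and, narrowly, Usp17ld (2.01 and 1.67 against 4.05 and 1.94), and none passed the test.

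Wif1 and Gtf2a1l were lower in both inhibitor pools than in both DMSO pools. Wif1 had 32 and 30 counts against 3 and 14 (1.15 and 1.09 against 0.120 and 0.431 CPM; -2.07, SE 1.68, adjusted p 0.823). Gtf2a1l had 23 and 27 counts with DMSO and 0 in both inhibitor pools. A count of 0 allows up to 3 counts in a pool of this depth. The observed DMSO mean was 8.49-fold the mean of that limit in the inhibitor pools. This ratio leaves out the counting error of the DMSO counts. Gtf2a1l had an adjusted p of 0.479 in edgeR, the lowest of the set. Its neighbour Ston1, 17628 bp away and on the same strand, showed the opposite pattern, with 0 counts in both DMSO pools and 52 and 36 with SGC0946 (edgeR adjusted p 0.385). Ston1 was singled out after its values were seen.

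Baiap2l2 and Trim29 were higher in both inhibitor pools, at low counts. Baiap2l2 had 43 and 2 counts against 68 and 55 (1.36, SE 1.31, adjusted p 0.864). The log2 fold change was 4.74 without the first DMSO pool and 0.43 without the second, and the gap between its DMSO pools was wider than the gap between treatments. Trim29 had 4 and 0 against 10 and 24 (2.84, SE 2.38, adjusted p 0.832), and the log2 fold change was 1.89 without the second DMSO pool, which is the pool at 0. The other tested genes overlapped between the groups: Ppp1r3d had 54 and 16 counts against 37 and 29, Myo3a 7 and 54 against 0 and 22, Rem1 45 and 9 against 35 and 12, Syce3 27 and 20 against 17 and 28, and Pkhd1l1 6 and 12 against 9 and 17.

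The remaining genes were at or near 0 in embryos. Filip1, Kcnj11, Cacng5, Prok2 and Tal2 had no count in any of the 4 pools, which allows up to between 0.0924 and 0.120 CPM in a pool. Hs3st6, Prokr1 and Ptgds had none with DMSO, and in all 9 of 26 were at 0 in both DMSO pools, where 56.0% of the comparison genes that stayed low were. With SGC0946, Ptgds had 44 and 0 counts, Prokr1 0 and 17, and Hs3st6 10 and 1, so that Ptgds and Prokr1 were each seen in a single pool. Sez6l had 24 and 5 counts with DMSO and 2 and 0 with SGC0946. The Prok2 and Prokr1 pair of the knockout cells was therefore not seen together in any embryo pool at this depth.

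The histone mark that DOT1L makes was looked for over the bodies of the genes in wild-type mESCs. None of the 27 held a base that lay in H3K79me2 peaks of both wild-type lists, nor one that lay in H3K79me3 peaks of both. For H3K79me2 this compares with 1.04% of 1058 placed comparison genes that stayed low and 42.3% of 18589 placed tested genes, and for H3K79me3 with 1.32% and 10.2%. The 27 genes had a median length of 25411 bp, which is longer than the 7459.5 bp of the comparison genes, so their bodies gave more room for a peak. None of the 27 overlapped a peak of a knockout list. That share was not counted for the comparison genes or the tested genes, so nothing is read from it.

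Some genes had peaks in a single wild-type list, and the fold enrichments given for them are the authors' own. For H3K79me3 the first wild-type list had peaks over 5 of the 27 (18.5%, beside 8.32% of the comparison genes and 26.8% of tested genes), namely Pkhd1l1, Hs3st6, Baiap2l2, Prok2 and Ppp1r3d. The Prok2 peak (chr6:99726059-99726625, mm10) had a fold enrichment of 4.37 and a -log10 q of 5.57 in the authors' list, and it covers the transcription start and most of the Prok2 sequence printed above. The peak over Baiap2l2 (chr15:79261705-79261918) had a fold enrichment of 4.58, and the others had 3.49 to 4.15.

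**Figure D4:**
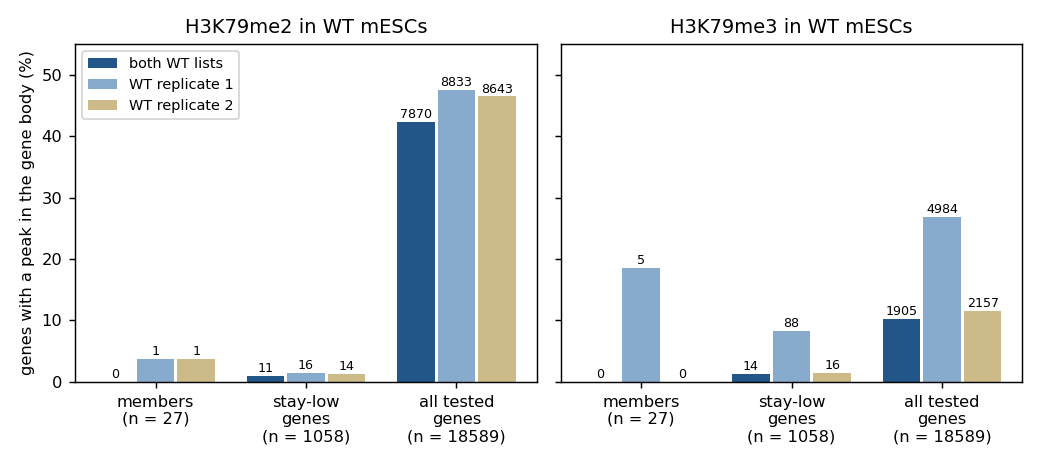
Percent of genes whose body overlaps a wild-type mESC peak of H3K79me2 (left) or H3K79me3 (right), in the 27 genes (members), the comparison genes that stayed low and all tested genes; bars are for bases in peaks of both wild-type lists and for each list alone, and the number over a bar is its count of genes. The 27 have 0 for both lists together, and their highest bar is the 18.5% for H3K79me3 in the first list, which the second list does not share.

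The genes were scattered over the genome. RefSeq (GRCm38.p6) places 26 of them as protein-coding genes and 1 as a long noncoding RNA, on 12 chromosomes, with 4 each on chromosomes 2, 15 and 17 and 0 on X (5.29% of the comparison genes are on X). No 2 lay within 1 Mb of each other, and the closest, Baiap2l2 (chr15:79258195-79285556) and Mei1 (chr15:82070074-82126817), were 2784518 bp apart. The coordinates are those of the whole gene, introns included, in this and the next paragraphs.

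Genes near the set were looked at in the same knockout comparison. Of 133 neighbours within 100 kb that could be tested, 54 were called higher and 16 lower (40.6% and 12.0%, beside 22.3% and 21.4% of all tested genes), with a median log2 fold change of 0.18, and these shares were not tested. Sycp2, which codes for a protein of the synaptonemal complex, lies 3430 bp from Ppp1r3d (chr2:178411206-178414463) and went from 2.60 to 11.2 CPM (log2 fold change 1.99, SE 0.13, adjusted p 6.660e-08). Around Kcnj11 (chr7:46097123-46100952), Abcc8 is described above, and Ush1c, a hair cell scaffold gene 94398 bp away, was higher as well (1.27, SE 0.22). Entpd2, an ectonucleotidase gene 65386 bp from Ptgds (chr2:25466709-25470110), went from 0.628 to 2.97 CPM (2.10, SE 0.25), and Eif4e3, a cap-binding protein gene 18426 bp from Prok2 (chr6:99711299-99726392), from 2.01 to 6.41 CPM (1.55, SE 0.22). These neighbours were named with their values in view.

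An overlapping gene touches 6 of the 27, and for these the counts of the pair may not be separate, since the use of strand in counting is not given in the sources used here. Ppp1r3d overlaps Fam217b on the opposite strand, which went from 4.03 to 9.59 CPM (1.14, SE 0.12, adjusted p 9.669e-06). Guca1a (chr17:47394557-47413514) overlaps 1700001C19Rik on its own strand, which had 0.775 and 1.02 CPM and did not pass the test (adjusted p 0.440). The noncoding 4930578G10Rik (chr4:42670290-42871806) overlaps the pseudogene Gm12394, which was higher as well (1.31, SE 0.28, adjusted p 0.00220). Filip1, Myo3a and Sez6l overlap genes that were not tested.

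Promoter sequences were at hand for 20 of the 27, as RefSeq windows from 250 bases before to 50 bases after the start. In some genes the start used lies inside the annotated gene, so the window is not at its outer end. The distances are 12908 bp in Guca1a, 12402 in Mei1, 3167 in Gtf2a1l, 1337 in Sez6l, 1254 in Hkdc1, 361 in Ptgds and 19 in Prokr1. The median ratio of observed to expected CpG in the 20 windows was 0.509. It lay between the 0.220 of 706 comparison genes that stayed low and the 0.699 of 13566 tested genes. Of the 20, 8 were above 0.6 (40.0%, beside 12.6% and 60.2%). Of the printed sequences, Prok2 has the CpG-rich type with a ratio of 1.03 over its window, Tal2 (0.548) and Prokr1 (0.513) lie near the median, and Usp17ld has 0. The median GC content was 59.0%, beside 50.3% in the comparison genes.

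Motifs were matched by their exact letters on both strands, and no matches of different motifs shared bases. A TATA box (TATAAA) was in 5 of the 20 windows (25%, beside 14.2% of 27025 RefSeq promoter windows of that length and 19.4% of the 706 comparison genes), an AP-1 site (TGACTCA) in 4 (20.0%, beside 5.17% and 6.37%), an E-box (CACGTG) in 3 (15.0%, beside 7.24% and 5.81%), a CCAAT box (CCAAT) in 4 (20.0%, beside 38.0% and 37.5%), and a GATA motif (AGATAA) in 0 (beside 11.4% and 14.6%). Counted from the start, the TATA box of Tal2 begins at position -30 on the strand of the gene, the distance usual for this element. In Prok2 the match is on the opposite strand at -46, with an AP-1 site at -67 and an E-box at -135. The other TATAAA matches begin at -110 on the strand of the gene in Usp17ld, and on the opposite strand at -140 in Syce3 and -232 in Wif1. Only the match in Tal2 is thus placed as is usual for a TATA box. A match describes the letters in the window and does not show that a factor binds there.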

How the data were processed

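RNA was measured in 5 mESC libraries and 4 embryo pools, and H3K79me2 and H3K79me3 in 8 mESC peak lists. Per the submitters' processing notes, mESC RNA was processed with kallisto, embryo RNA with STAR and HTSeq, and ChIP with Bowtie2 and MACS2, on mm10, with versions not given in the sources used here. The authors deposited expected counts per gene for mESCs (not whole for all genes, and rounded here for the tests) and whole-number counts for embryos. The deposited peak lists give the authors' score, fold enrichment as a ratio, -log10 p-value and -log10 q-value per peak, called on each sample.

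CPM is a count times 1000000 over its library's total. Tests were edgeR 4.0.16 (R 4.3.3) quasi-likelihood fits over all genes of each table, on those 2 groups only, with filterByExpr, TMM scaling and Benjamini-Hochberg adjustment at 0.05. The SE of a log2 fold change was derived from the test, as its absolute value over the square root of the F statistic. The fits were tested on simulated counts of genes with a mean above 1 CPM and the same dispersion for all genes. That check does not cover genes at lower levels. DESeq2 1.42.0, other scalings and filters, a replicate block and leaving out each library were alternatives. Same-numbered libraries were not treated as pairs, since the labels do not say that a number marks a shared batch or day. Peaks were matched to RefSeq gene bodies (GRCm38.p6) by an overlap of at least 1 bp, with Python 3.11.15.

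The members and lists were chosen with earlier results of these data known; the relatives and roles were listed once the members were known. Genes named in mESCs are the 25 members with the highest knockout mean and the 3 genes just inside and the 3 just outside each limit. In embryos they are the 15 with the highest DMSO mean, the 5 tested members with the lowest p and any called. For peaks they are up to 15 members with a peak of both wild-type lists and any with a knockout peak. Other names were chosen after their values were seen. Some genes that these rules name, 1 of the 27 among them, are counted but not reported here by name.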

Additional observations from a re-analysis of the deposited data

How the results depend on the processing

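The size of the set depends on its limits. With wild-type limits of 0.25 and 0.75 CPM it held 2 and 128 genes, with a knockout limit of 2 CPM it held 2, with TMM library sizes it held 23 (without Asb4, Cacng5, Guca1a and Rem1), and leaving out each library in turn gave 38 to 68, the last without the second knockout library. The median mESC log2 fold change of 2.19 was 2.02 with a replicate block and 2.03 to 2.21 with a library left out. Of 270 single-gene mESC fits, 269 kept their call, and Filip1 lost it in DESeq2. These fits use the counts that chose the genes, so the calls were largely built in and nothing is read from them. In embryos, edgeR called 0 members in every alternative. The embryo median of -0.23 ran from -0.30 to 0.35 with a pool left out, and was -0.21 with a replicate block. The count of 8 genes read with DMSO was 4 at a limit of 5 CPM and 9 to 11 with a pool left out. The first or the second wild-type H3K79me2 list alone gave 1 gene, the same in both, and the first H3K79me3 list alone gave 5. The sign of 12 of 152 embryo single-gene fits changed. With a pool left out, Asb4 ran from -0.80 to 0.85, Best2 from -0.80 to 0.35, Myo3a from -7.94 to 0.38, Pkhd1l1 from -0.071 to 0.95, Pnliprp2 from -1.08 to 0.71, Ppp1r3d from -0.79 to 0.92 and Rem1 from -1.44 to 1.31, and Ppp1r3d was 0.017 with the replicate block. Deviations of same-numbered libraries correlated at 0.05 in embryos and at 0.00 and -0.03 in mESCs, so the numbers were not taken as pairs, and the block changed no other call. Counts of 0 to 16.5 in wild-type mESCs and a biological coefficient of variation of 0.442 in embryos limit what could be seen.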

Other observations

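The genes that met the CPM limits but were set aside by name were Gm13285, Gm13288, Gm5301 and Gm45226. Of these, Gm13285 and Gm13288 are annotated as protein-coding on chromosome 4 with 4663 bp between them. Gm13288 had 14.0, 11.4 and 13.4 estimated counts in wild-type mESCs and 53.9 and 30.3 in the knockouts, and Gm13285 had 12.3, 11.7 and 6.7 against 30.3 and 31.1. The counts of both are not whole numbers, so reads that fit several transcripts were divided among them and the value of each is uncertain.

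The reverse rule (at least 1 CPM in every wild-type library and under 0.5 CPM in both knockouts) found 7 genes: Alox12e, Crisp1, Magea9, Mslnl, Olfr836, Osm and Tmprss12. Crisp1, which codes for a secreted protein of the epididymis, had the lowest log2 fold change among them (-4.12, SE 0.31), and Osm, which codes for the cytokine oncostatin M, had -2.94 (SE 0.30). These values chose the genes and carry no test. Of the 7, 6 were listed in embryos and 3 had at least 1 CPM in both DMSO pools.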
